A study of Homo sapiens with 10 samples.

Results

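The genes described here are the transcription factor ATF4, 4 genes known as its stress targets (DDIT3, TRIB3, CHAC1 and ASNS), 3 enzymes of serine synthesis (PHGDH, PSAT1 and PSPH) and 2 mitochondrial enzymes of one-carbon metabolism (SHMT2 and MTHFD2). They were taken by gene name from a table of estimated read counts, and all 10 were found among its 40664 gene rows. The cells were hTERT RPE-1, an established line made from human retinal pigment epithelium by expression of telomerase. The substrate had a stiffness of 10 kPa or 120 kPa, and cells were either Control cells or cells treated with siRNA against Nemp1, which encodes a nuclear envelope membrane protein. There were 2 libraries each of Control and siNemp1 cells on 10 kPa, and 3 libraries each of Control and siNemp1 cells on 120 kPa. Time on the substrate, the siRNA sequence and the kind of control are not given in the labels, and neither is whether replicates came from separate cultures. The p-values therefore speak only of library-to-library spread, part or all of which may be technical.

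ATF4 is the central transcription factor of the integrated stress response. Kinases that sense amino acid shortage, stress of the endoplasmic reticulum, haem shortage or viral RNA phosphorylate the initiation factor eIF2, which lowers general protein synthesis but favours translation of the ATF4 mRNA, so that the level of that mRNA is only one layer of its control. Among the best known ATF4 targets are enzymes that make serine from a glycolytic intermediate and enzymes that pass the one-carbon unit of serine to folate in mitochondria, where it serves purine and thymidylate synthesis.

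ATF4 and its C/EBP partners bind a composite element, and the 8-letter core TGATGNAA was searched on both strands of the RefSeq promoter windows on GRCh38, from 250 bases before to 50 after each start. The windows covered 8 of the 10 genes, with 13 windows in all, and PSPH and SHMT2 had none. The core was present for 2 genes, ASNS and CHAC1, in 2 of the 13 windows, and it was present in 3.62% of 35116 promoter windows. The palindromic cAMP response element TGACGTCA, searched the same way, was present for 0 of the 8 genes and in 1.85% of all windows. The 2 stretches with a match are shown because they are the only places among these windows where the core was found. Capitals mark the 8 matching bases.
ASNS: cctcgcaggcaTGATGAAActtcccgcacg
CHAC1: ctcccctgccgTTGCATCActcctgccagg
The ASNS stretch lies at chr7:97872458-97872487 on the minus strand, with the match 68 to 61 bases before the start. The CHAC1 stretch lies at chr15:40953251-40953280 on the plus strand, with the match read on the opposite strand, 209 to 202 bases before the start. Both stretches overlap an annotated exon of a transcript that starts further upstream. A match describes the letters only, and no binding was measured.

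Library totals were 17949807 to 23797713 estimated reads. NEMP1 itself was at 14.0 to 18.3 CPM (reads per 1000000, scaled between libraries by TMM) in the 5 Control libraries and at 4.11 to 8.22 CPM in the 5 siNemp1 libraries. In libraries 1, 2 and 3 on 120 kPa it was at 18.3, 14.0 and 14.1 CPM in Control and at 7.52, 6.70 and 4.11 CPM in siNemp1. Replicates differed little on 10 kPa, with a chi-square of 2.67 per gene in Control and 6.58 in siNemp1, and far more on 120 kPa, with 21.5 to 93.3 per gene. The share of mitochondrially encoded reads was 1.48 to 1.60% on 10 kPa. On 120 kPa it was 1.73, 1.40 and 0.913% in Control libraries 1, 2 and 3, and 1.06, 0.826 and 0.709% in the siNemp1 libraries of the same numbers. Of the pigment epithelium markers, RPE65, RLBP1, LRAT and TYR were near 0 (at most 0.63 unscaled CPM), while BEST1 reached 93.6 and MITF 150. The epithelial keratins KRT8 and KRT18 were abundant (500 to 1215 unscaled CPM), and CDH1, EPCAM and KRT19 were near 0.

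Per kilobase of transcript, the one-carbon enzyme SHMT2 had the highest level of the 10 in Control cells on 10 kPa (118 CPM per kb), followed by PHGDH (85.3), ATF4 (83.2) and DDIT3 (56.9). MTHFD2 was at 32.6, PSAT1 at 16.2, TRIB3 at 9.96, ASNS at 9.63 and PSPH at 8.22 CPM per kb. CHAC1 was lowest at 1.38 CPM per kb, with 34 to 49 reads in each library on 10 kPa. The genes thus differed widely in level before any comparison. These lengths are medians over the annotated coding transcripts, so neighbours in this order cannot be separated by small differences in level.

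ATF4, the regulator of the group, lies on chromosome 22 (39519695 to 39522685, plus strand, GENCODE annotation on GRCh38) and varied least of the 10. In Control cells it was at 160 and 158 CPM on 10 kPa and at 125, 143 and 173 CPM in libraries 1, 2 and 3 on 120 kPa. In siNemp1 cells it was at 134 and 143 CPM on 10 kPa and at 142, 161 and 195 CPM on 120 kPa. The 2 siNemp1 libraries on 10 kPa lay below the 2 Control libraries there, whereas on 120 kPa the groups overlapped and each siNemp1 library lay above the Control library of its own number.

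DDIT3 (chromosome 12, 57516588 to 57521737, minus strand) encodes CHOP, a transcription factor linked to cell death under prolonged stress. Its level on 10 kPa was 52.8 and 54.1 CPM in Control and 48.6 and 58.1 CPM in siNemp1. On 120 kPa it was 49.4, 81.0 and 143 CPM in Control libraries 1, 2 and 3 and 62.3, 90.2 and 236 CPM in siNemp1. DDIT3 overlaps MARS1, the methionyl-tRNA synthetase gene, on the other strand (2517 to 9101 reads for MARS1). No source used here states the strandedness, so reads of the overlap cannot be told apart.

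TRIB3 (chromosome 20, 362835 to 397559, plus strand), a pseudokinase that dampens ATF4 and CHOP activity, was with CHAC1 the most variable of the group. It was at 20.5 and 19.7 CPM in Control and at 21.3 and 18.03 CPM in siNemp1 on 10 kPa. On 120 kPa it was at 11.2, 51.7 and 112 CPM in Control libraries 1, 2 and 3 and at 18.8, 60.8 and 169 CPM in siNemp1. Library 1 on 120 kPa was thus no higher than the range on 10 kPa, and library 3 was several times above it, in both treatments.

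CHAC1 (chromosome 15, 40952962 to 40956519, plus strand), which degrades glutathione, and ASNS (chromosome 7, 97852118 to 97872542, minus strand), which makes asparagine, were arranged alike. CHAC1 was at 1.72 to 2.05 CPM in the 4 libraries on 10 kPa. It was at 1.95, 6.45 and 17.7 CPM in Control and at 2.06, 6.06 and 23.9 CPM in siNemp1 on 120 kPa. Its library 1 on 120 kPa was thus close to the libraries on 10 kPa in both treatments. ASNS was at 18.1 and 17.8 CPM in Control and at 21.0 and 21.6 CPM in siNemp1 on 10 kPa. It was at 20.1, 38.1 and 81.3 CPM in Control and at 26.5, 56.4 and 146 CPM in siNemp1 on 120 kPa. For ASNS the siNemp1 library exceeded its Control counterpart in all 5 numbered pairs.

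The serine enzymes act in order. PHGDH (chromosome 1, 119648411 to 119744226, plus strand), the enzyme of the entry step, was at 159 and 162 CPM in Control and at 177 and 180 CPM in siNemp1 on 10 kPa. On 120 kPa it was at 139, 208 and 305 CPM in Control and at 182, 245 and 298 CPM in siNemp1. Among the 10 genes it was the only one whose highest library was a Control library. PSAT1 (chromosome 9, 78297143 to 78330093, plus strand), the aminotransferase of the next step, was at 27.3 and 31.1 CPM in Control and at 30.6 and 30.7 CPM in siNemp1 on 10 kPa. On 120 kPa PSAT1 was at 30.5, 59.5 and 130 CPM in Control and at 38.8, 91.1 and 207 CPM in siNemp1. PSAT1 followed ASNS most closely of all pairs within the group, with a root mean square difference of 0.089 between their centred log2 levels over the 10 libraries. PSPH (chromosome 7, 56011051 to 56051604, minus strand), the phosphatase that releases serine, was at 17.3 and 18.1 CPM in Control and at 20.5 and 19.8 CPM in siNemp1 on 10 kPa. On 120 kPa PSPH was at 16.9, 23.6 and 33.3 CPM in Control and at 29.6, 30.1 and 34.8 CPM in siNemp1, so that its siNemp1 libraries lay closer together than its Control libraries.

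SHMT2 (chromosome 12, 57229327 to 57234935, plus strand), which moves a one-carbon unit from serine to folate in mitochondria, was at 236 and 237 CPM in Control and at 254 and 276 CPM in siNemp1 on 10 kPa. On 120 kPa SHMT2 was at 256, 256 and 371 CPM in Control and at 285, 327 and 516 CPM in siNemp1. MTHFD2 (chromosome 2, 74198562 to 74217565, plus strand), the mitochondrial enzyme that oxidises that unit further, was at 59.9 and 61.9 CPM in Control and at 66.7 and 66.9 CPM in siNemp1 on 10 kPa. Both genes had every siNemp1 library above every Control library on 10 kPa. On 120 kPa MTHFD2 was at 73.3, 82.3 and 133 CPM in Control and at 81.7, 106 and 216 CPM in siNemp1. Groups overlapped on 120 kPa for both, yet the siNemp1 library was higher in each of the 3 numbered pairs.

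**Figure D1:**
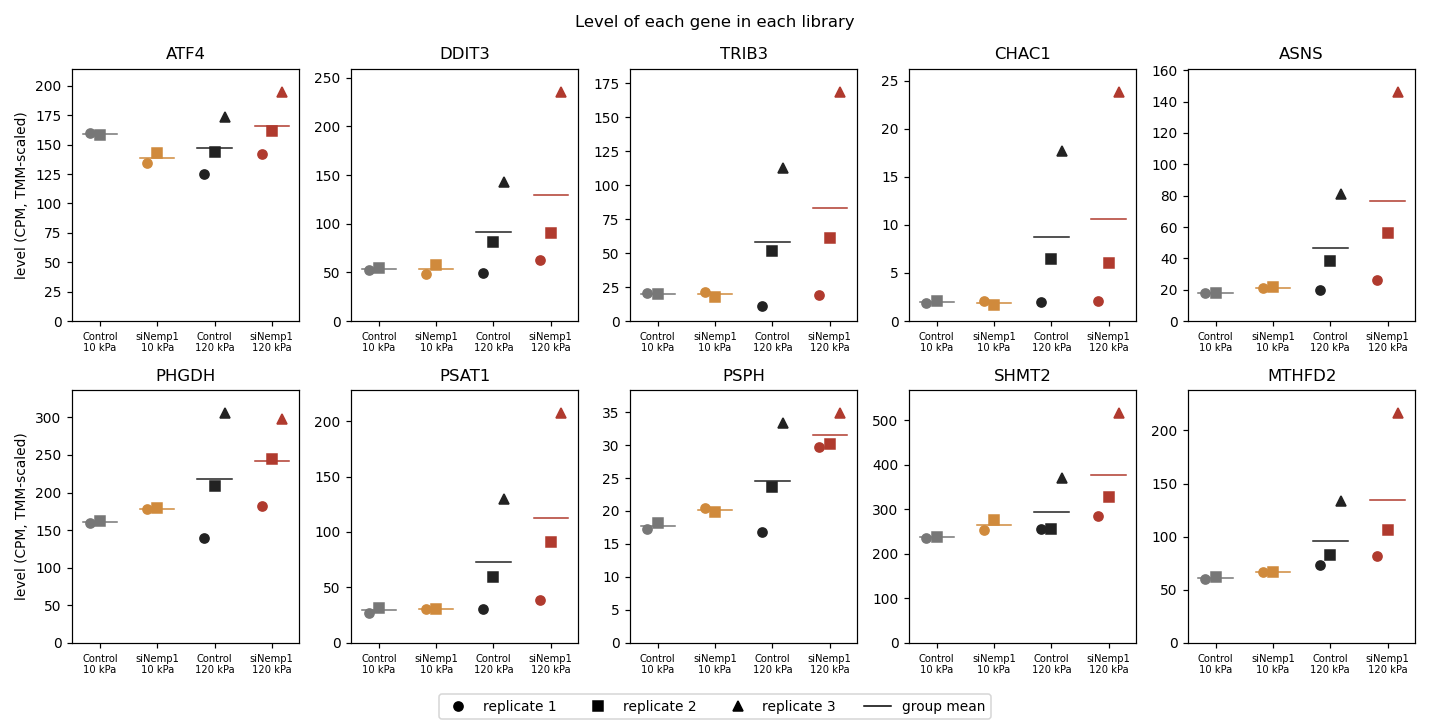
Level of each of the 10 genes (y axis, CPM with TMM scaling) in each library (points, shaped by replicate number) of the 4 groups on the x axis, with the group mean as a line. On 120 kPa the point of library 3 is the highest and that of library 1 the lowest in both treatments for all 10 genes.

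The largest differences in these genes lay between the replicate numbers on 120 kPa, and that comparison was added after the values had been seen. All 10 genes were highest in library 3 and lowest in library 1 in both treatments, an order shown by 12.3% of all tested genes. Between libraries 1 and 3 the level of TRIB3 differed 10.0-fold in Control and 8.96-fold in siNemp1, and that of CHAC1 differed 9.11-fold and 11.6-fold. ASNS differed 4.05-fold and 5.53-fold, PSAT1 4.26-fold and 5.33-fold, and DDIT3 2.90-fold and 3.79-fold. These 5 genes were at least 2-fold higher in library 3 in both treatments, as were 2.89% of all tested genes. PHGDH differed 2.20-fold in Control and 1.64-fold in siNemp1, MTHFD2 1.82-fold and 2.65-fold, and SHMT2 1.45-fold and 1.81-fold. For PSPH the ratios were 1.97 and 1.17, and for ATF4 they were 1.39 and 1.37.

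With edgeR's quasi-likelihood test of the replicate number over the 6 libraries on 120 kPa, keeping treatment in the model, 9 of the 10 genes were called for any difference among the 3 numbers at a Benjamini-Hochberg adjusted p under 0.05. The background was 2237 of 13362 genes (16.7%). Fitted log2 differences, library 3 minus library 1, were 3.36 ± 0.22 (SE) for CHAC1, 3.23 ± 0.15 for TRIB3, 2.25 ± 0.14 for PSAT1 and 2.24 ± 0.15 for ASNS. They were 1.73 ± 0.15 for DDIT3, 1.13 ± 0.15 for MTHFD2, 0.92 ± 0.12 for PHGDH, 0.69 ± 0.12 for SHMT2 and 0.46 ± 0.10 for ATF4. The exception was PSPH, at 0.59 ± 0.17 with an adjusted p of 0.076 in edgeR. The median over the 10 genes was 1.43, against 0.01 over all tested genes. The test rests on 2 residual degrees of freedom. Leaving out 1 library at a time left 1 degree and 7 to 10 of the 10 genes called, but the background also varied. The 7 stood beside 482 of 13627 genes without Control library 2 and 465 of 13619 without siNemp1 library 2. The 10 stood beside 4644 of 13559 genes without siNemp1 library 3. ATF4 was not called without either library numbered 2 or either library numbered 1 (adjusted p of 0.11 to 0.22 in edgeR). SHMT2 was not called without either library numbered 2. PSPH was called without siNemp1 library 1 (0.88 ± 0.21, adjusted p of 0.019 in edgeR), without siNemp1 library 3 (0.83 ± 0.16, adjusted p of 0.00059) and without the filter on low counts (adjusted p of 0.020), and it was at 0.31 ± 0.20 without Control library 1.

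Other values moved with the same numbers. The mitochondrial share was highest in library 1 and lowest in library 3 of each treatment, and of the 5 tested fibroblast markers 4 were called by the same edgeR test of any difference among the 3 numbers. Their log2 differences, library 3 minus library 1, were -1.29 ± 0.21 for PDGFRA, -1.09 ± 0.16 for DCN, -0.85 ± 0.17 for THY1 and -0.38 ± 0.18 for PDGFRB. COL1A1, the marker not called, went the other way, at 0.62 ± 0.23. Of 6 tested pigment epithelium markers 1 was called, MITF at -0.82 ± 0.11, and of 2 epithelial markers 0. The summed level of the 6 listed fibroblast markers was 705.4 to 908.4 unscaled CPM in Control and 329.5 to 682.7 in siNemp1 on 120 kPa. On 10 kPa it was 960.5 to 965.2 in Control and 752.9 to 766.6 in siNemp1. Most of that sum was THY1, at 267.8 to 845.5 unscaled CPM, whereas PDGFRB, the next highest, reached 85.6. The part of the mitochondrial share and of these markers in the difference between replicate numbers was not tested. In bulk libraries a change in the number of cells with a transcript and a change in RNA per cell cannot be told apart. The labels do not say what a replicate number stands for.

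**Figure D2:**
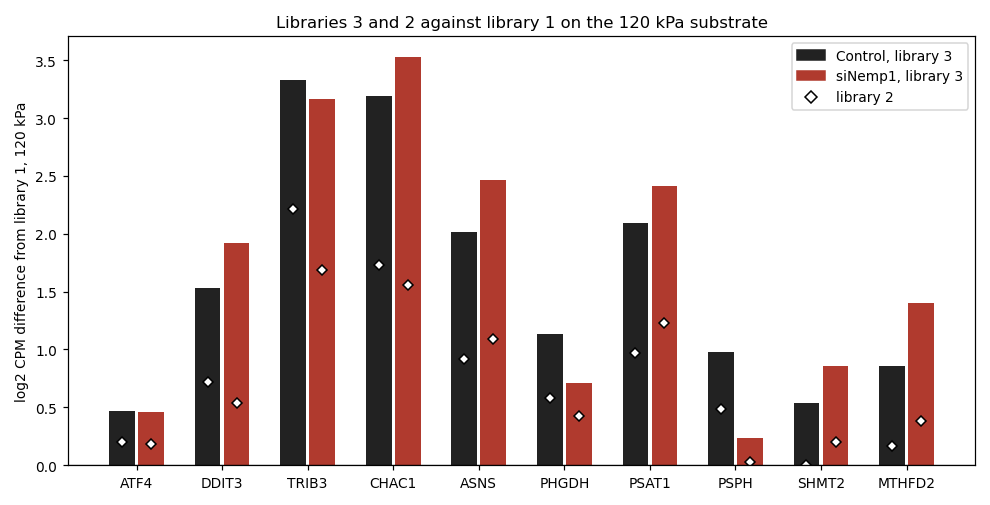
Log2 CPM difference from library 1 of the same treatment on 120 kPa (y axis) for the 10 genes (x axis), with bars for library 3 (black, Control; red, siNemp1) and diamonds for library 2. TRIB3 and CHAC1 stand above 3 in both treatments and ATF4 below 0.5.

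The comparison of siNemp1 with Control cells on 120 kPa asks whether knockdown of Nemp1 changes these genes on the stiff substrate. All 10 were higher on average in siNemp1 cells, but the replicates of the 2 groups overlapped for every one, whereas 10.9% of all tested genes had every siNemp1 library higher. In the edgeR quasi-likelihood fit of all libraries, 0 of the 10 genes and 0% of 13990 genes were called. An unadjusted p under 0.05 was seen there for 0 of the 10 and for 2413 of the 13990. DESeq2 likewise called 0 of the 10 and 2.73% of its 23537 genes. Its unadjusted p was under 0.05 for 0 of the 10 and for 2347 of the 23537. Without the filter on low counts edgeR called DDIT3, ASNS and PSAT1 higher, 3 of the 10 against 2.73% of 23547 genes. The median fitted difference over the 10 was 0.42 on the log2 scale, against 0.01 over all tested genes, and it depended on single libraries. It was -0.13 without siNemp1 library 3, 0.17 without Control library 1 and 0.88 without Control library 3.

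Set against the Control library of the same number, siNemp1 was higher in all 3 pairs for 8 of the 10 genes, as it was for 25.1% of all tested genes. The ratio for ATF4 was nearly constant, at 1.14, 1.13 and 1.13 in pairs 1, 2 and 3. ASNS had ratios of 1.32, 1.48 and 1.801, PSAT1 of 1.27, 1.53 and 1.60, and MTHFD2 of 1.11, 1.29 and 1.62. PSPH had the opposite arrangement, with 1.76, 1.27 and 1.05. The 2 exceptions were CHAC1, with 1.06, 0.941 and 1.35, and PHGDH, with 1.31, 1.18 and 0.976.

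**Figure D3:**
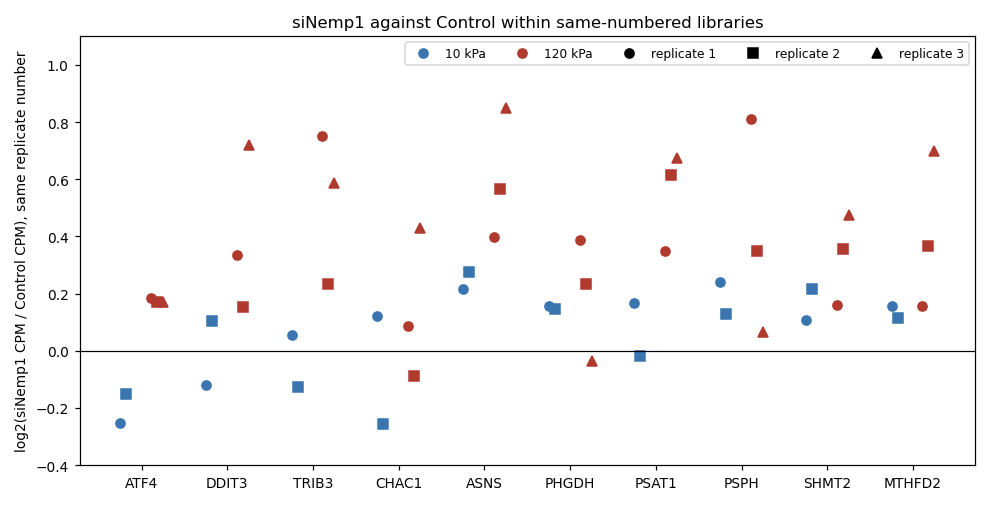
Log2 ratio of siNemp1 to Control CPM between libraries of the same number (y axis) for the 10 genes (x axis), on 10 kPa (blue) and 120 kPa (red), with the replicate number as the symbol. On 120 kPa the 3 points lie above 0 for 8 genes, and on 10 kPa both points of ATF4 lie below 0.

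When the replicate number was fitted as a block, SHMT2 and MTHFD2 rose in siNemp1 cells on 120 kPa, by 0.33 ± 0.09 and 0.41 ± 0.12 on the log2 scale. Their Benjamini-Hochberg adjusted p-values in edgeR were 0.0495 and 0.0485, just under the threshold. These 2 of 10 genes stood beside 1224 of all 13990 genes called (8.75%). The other 8 were not called: ASNS was at 0.62 ± 0.23, PSAT1 at 0.57 ± 0.23, DDIT3 at 0.40 ± 0.14 and PSPH at 0.40 ± 0.14, with adjusted p-values in edgeR of 0.11 to 0.18. TRIB3 (0.47 ± 0.55), CHAC1 (0.16 ± 0.35), PHGDH (0.19 ± 0.13) and ATF4 (0.18 ± 0.09) had adjusted p-values of 0.24 to 0.83. Within the block, 5 of the 10 genes were called without pair 1, beside 1552 of 13860 genes. Without pair 2 the block called 0 of the 10 and only 2 of 13879 genes. Without pair 3 it called 0 of the 10 and 755 of 13744 genes. The block was shared by both stiffnesses. Fitted in the 120 kPa libraries alone, it called 3 of the 10 genes, beside 1255 of 13362 genes. With upper-quartile scaling or with DESeq2 size factors, both chosen after seeing the data, 0 of the 10 genes were called in the block. Of all 13990 genes 1215 and 1103 were called in these 2 fits. The mitochondrial share was lower in siNemp1 in each of the 3 pairs, and THY1 fell by 0.73 ± 0.15 on the log2 scale in the blocked fit. The part of either in the differences was not tested.

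**Figure D4:**
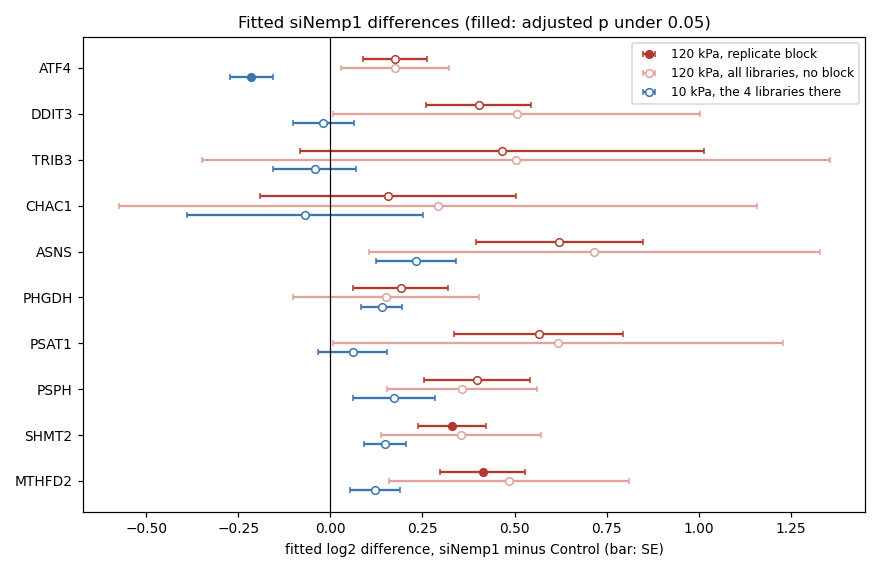
Fitted log2 difference between siNemp1 and Control (x axis, bars are SE) for the 10 genes (y axis), on 120 kPa with the replicate block (red) and without it (pale red), and on 10 kPa in the 4 libraries there (blue). Filled points have an adjusted p under 0.05: SHMT2 and MTHFD2 on 120 kPa with the block, and ATF4 on 10 kPa.

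On the 10 kPa substrate the differences were small and ran both ways. ASNS, PHGDH, PSPH, SHMT2 and MTHFD2 had both siNemp1 libraries above both Control libraries, and ATF4 had both below. Such a separation upwards was seen for 5 of the 10 genes and for 28.8% of all tested genes, and downwards for 1 of the 10 and for 28.5% of all. Higher values in both numbered pairs were seen for 5 of the 10 and for 34.3% of all. The edgeR fit of all libraries called 0 of the 10 genes and 0% of all. Its unadjusted p was under 0.05 for 0 of the 10 and for 850 of 13990 genes. The blocked fit called 0 of the 10 and 0.0286% of all. DESeq2 called 0 of the 10 and 0.0722% of its genes. The edgeR fit of all libraries estimates each gene's spread from all of them together, including the stiffer substrate, where replicates differed far more. Its standard errors for siNemp1 on 10 kPa were 0.18 for ATF4, 0.61 for DDIT3 and 0.76 for PSAT1. In the 4 libraries on 10 kPa alone they were 0.06, 0.08 and 0.09. The 0 calls of the fit of all libraries thus do not show that an effect was absent on 10 kPa. In the edgeR fit of the 4 libraries on 10 kPa alone, ATF4 fell by 0.21 ± 0.06 on the log2 scale, with an adjusted p of 0.013. That was 1 of 10 genes, against 17.3% of 13345 genes called in that fit, which rests on 2 libraries per group. Cell type markers moved there too: 2 of 5 fibroblast markers fell (THY1 by 0.38 ± 0.05 and DCN by 0.34 ± 0.11), KRT18 fell by 0.27 ± 0.06 as 1 of 2 epithelial markers, and MITF rose by 0.27 ± 0.06 as 1 of 6 pigment epithelium markers. Their part in the ATF4 value was not tested. SHMT2 was at 0.15 ± 0.06, PHGDH at 0.14 ± 0.06 and ASNS at 0.23 ± 0.11 there, with adjusted p-values of 0.074 to 0.15.

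Averaged over both stiffnesses, siNemp1 against Control called 0 of the 10 genes by edgeR and 1.29% of all genes. An unadjusted p under 0.05 was seen for 0 of the 10 and for 2763 of 13990 genes. With the block edgeR called 0 of the 10 and 10.8% of all. DESeq2 called 0 of the 10 and 4.22% of its genes. In the blocked average SHMT2 came nearest, at 0.25 ± 0.07 with an adjusted p of 0.054 in edgeR. The difference between the siNemp1 effects on 120 and 10 kPa called 0 of the 10 genes and 0.00715% of all by edgeR. DESeq2 called 0 of the 10 and 0.0127% of its genes. By either, 0 of the 10 had an unadjusted p under 0.05, beside 235 of 13990 genes by edgeR and 205 of 23537 by DESeq2.

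Between stiffnesses the fitted differences were positive for all but ATF4 in Control, with wide errors. In Control cells 0 of the 10 genes and 0.0143% of all genes were called by edgeR. An unadjusted p under 0.05 was seen for 0 of the 10 and for 569 of 13990 genes. The fitted log2 differences, 120 minus 10 kPa, were 2.15 ± 1.12 for CHAC1, 1.54 ± 1.02 for TRIB3, 1.37 ± 0.73 for ASNS and -0.11 ± 0.16 for ATF4. In siNemp1 cells edgeR called 0 of the 10 genes and 0% of all. Its unadjusted p was under 0.05 for 4 of the 10 (ASNS, PSAT1, PSPH and MTHFD2), beside 1655 of 13990 genes. There CHAC1 was at 2.50 ± 1.12, TRIB3 at 2.08 ± 1.04, PSAT1 at 1.87 ± 0.73 and ATF4 at 0.26 ± 0.16. DESeq2 called 0 of the 10 in Control (0.051% of its genes) and 0 in siNemp1 (0.472%). Its unadjusted p was under 0.05 for 2 and 7 of the 10, beside 613 and 1673 of 23537 genes. Without the filter on low counts edgeR called DDIT3, TRIB3, CHAC1, ASNS, PSAT1 and MTHFD2 higher on 120 kPa in each treatment, 6 of the 10, against 0.675% of genes in Control and 2.25% in siNemp1. All libraries on 120 kPa lay above both on 10 kPa for ASNS, SHMT2 and MTHFD2 in Control, 3 of 10 against 10.3% of all genes. In siNemp1 this held for 8 of the 10, all but ATF4 and TRIB3, against 18.2% of all genes. Without both libraries numbered 3 the median over the 10 genes went from 0.72 to 0.33 in Control and from 1.15 to 0.51 in siNemp1.

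The wider gene lists place these values in their pathways. Of 22 tested ATF4 partners and other targets, 12 were called by the edgeR test of any difference among the replicate numbers on 120 kPa, beside 16.7% of all genes. Library 3 minus library 1 was positive for 10 of these and negative for 2, and its median over the 22 was 0.71 on the log2 scale. Named after their values were seen, the highest among the called genes were ATF3, a stress transcription factor (3.95 ± 0.25), STC2, a secreted glycoprotein (2.45 ± 0.23), and CEBPG, a dimer partner of ATF4 (1.98 ± 0.21). ATF3 was at 0.815, 4.24 and 10.9 CPM in Control and at 1.03, 6.16 and 18.3 CPM in siNemp1. GDF15, a secreted stress cytokine, was at 2.44 ± 0.83 and was not called. ALDH18A1 and TRIB2 were the called genes with negative differences (-0.52 ± 0.10 and -0.43 ± 0.13). Of 13 amino acid transporters 7 were called, 6 with a positive and 1 with a negative difference, with SLC7A5 (2.89 ± 0.13) and SLC3A2 (1.96 ± 0.10), which together form the large neutral amino acid transporter, furthest apart. SLC38A2 was the negative one, at -0.68 ± 0.12.

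Upstream of ATF4, 1 of 19 eIF2 kinases and regulators was called by the same test, and the median of library 3 minus library 1 was -0.02. That gene was PPP1R15A (1.97 ± 0.19), the phosphatase subunit GADD34 that reverses eIF2 phosphorylation and is itself induced in the stress response. Folate, serine and glycine enzymes outside the 10 genes were split, with 6 of 23 called, 3 in each direction of library 3 minus library 1, and a median of -0.11. CBS, which joins serine to homocysteine, was the highest at 2.89 ± 0.28, whereas MTHFD1, the cytosolic folate enzyme, was at -0.50 ± 0.11. Of 13 purine synthesis enzymes 4 were called, 2 in each direction.

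For siNemp1 against Control on 120 kPa in the blocked edgeR fit, 4 of the 23 folate genes rose and 1 fell, beside 8.75% of all genes called in either direction in that fit. Those that rose were MAT2B (0.50 ± 0.09), a subunit of methionine adenosyltransferase, AHCY (0.49 ± 0.12), which clears S-adenosylhomocysteine, TYMS (0.46 ± 0.13), the thymidylate synthase, and MTHFD2L (0.70 ± 0.19), the paralogue of MTHFD2. MTR, the methionine synthase, fell by 0.42 ± 0.11. MAT2B was at 80.3, 78.3 and 77.6 CPM in Control and at 118, 111 and 106 CPM in siNemp1, groups that did not overlap. Of the 13 purine enzymes ADSL rose (0.66 ± 0.10), and of the 19 genes of the eIF2 list the kinase EIF2AK2 and the GCN2 activator GCN1 fell, by 0.40 ± 0.09 and 0.31 ± 0.09. Of the ATF4 partners and targets 1 of 22 rose, ERO1A (0.40 ± 0.10), an oxidase of the endoplasmic reticulum. Of the transporters 0 of 13 were called, with 2 at an unadjusted p under 0.05 in edgeR, beside 3501 of 13990 genes. No gene of these 5 lists was called in the edgeR fit without the block.

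On 10 kPa the edgeR fit of all libraries called 0 genes of these 5 lists, with spread taken partly from 120 kPa. In the fit of the 4 libraries there, which called 17.3% of all genes, 3 of 23 folate enzymes rose and 2 fell in siNemp1. AHCY (0.38 ± 0.06) and MAT2B (0.23 ± 0.06) rose and MTR fell by 0.48 ± 0.10, the directions they had on 120 kPa. ADSL rose by 0.33 ± 0.08 and GCN1 fell by 0.38 ± 0.06. Of the 19 genes of the eIF2 list 4 rose and 3 fell, and of 21 tested ATF4 partners and targets 3 rose and 1 fell, with NUPR1, a stress-induced chromatin protein, highest (0.39 ± 0.07). Of the 13 transporters 0 rose and 2 fell, SLC7A5 by 0.45 ± 0.12 and SLC7A1 by 0.38 ± 0.10.

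**Figure D5:**
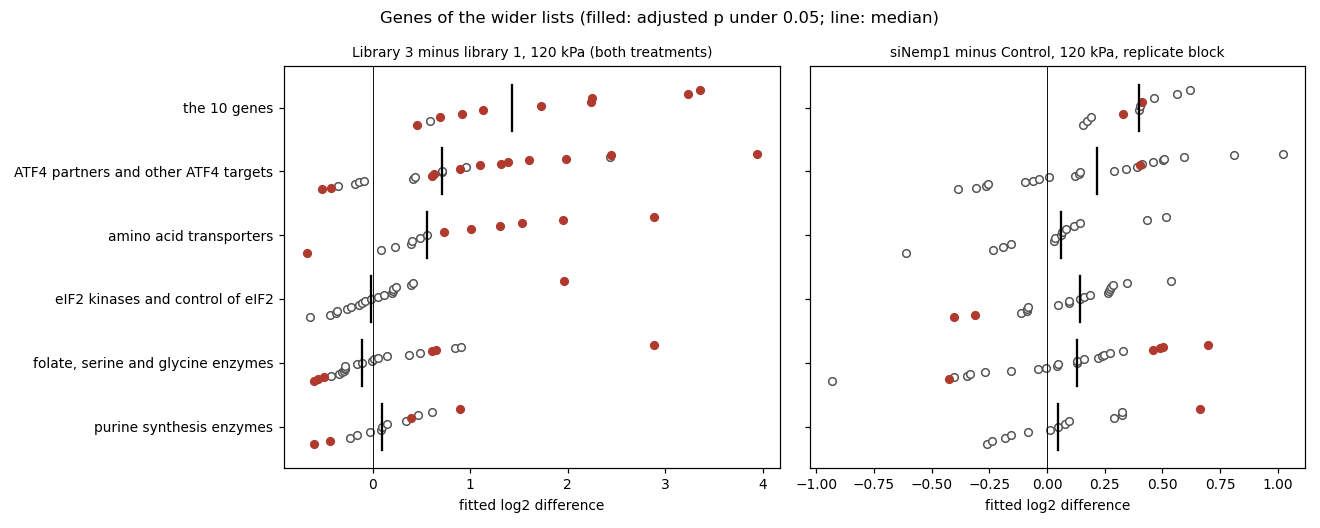
Fitted log2 differences (x axis) of the 10 genes and of 5 wider lists (y axis; marker lists are not shown), library 3 minus library 1 on 120 kPa at left and siNemp1 minus Control on 120 kPa with the replicate block at right; filled points have an adjusted p under 0.05 (at left in the joint test of the 3 replicate numbers) and the vertical line is the list's median. At left the medians are 1.43 for the 10 genes, 0.71 for ATF4 partners and targets and 0.56 for transporters, and -0.11 to 0.09 for the other lists shown.

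Over the 10 libraries the tested genes with the pattern most like that of MTHFD2 were NTM, SARS1, ODC1, AIMP2 and MARS1, with root mean square differences of 0.075 to 0.141 in centred log2 CPM, against a median of 0.59 over 9641 genes. SARS1 and MARS1 encode aminoacyl-tRNA synthetases, and AIMP2 is a scaffold of the synthetase complex. For ATF4 the nearest were SERBP1, BTBD6, BRI3, DRAP1 and N4BP1, at 0.065 to 0.079 against a median of 0.28. These likenesses are over libraries that share treatments and replicate numbers and describe pattern only. Pseudogenes of the 10 genes took almost no reads: of 21 such rows 5 had any, ATF4P2 the most with 3 in a library.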

How the data were processed

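Per the labels' protocols, total RNA was depleted of ribosomal RNA, reverse transcribed from random hexamers and sequenced with Illumina adapters. The build (GRCh38) and the tools come from the submitters' processing notes: Salmon 1.80 (as written there), Trimmomatic 0.33, FastQC 0.11.9 and edgeR, with no order given. No source used here states the annotation, the strandedness or the step to genes. The deposited values are estimated counts per gene, not scaled between libraries. They were rounded, filtered with filterByExpr (13990 genes kept, all 10 genes among them), TMM-scaled and fitted with edgeR 4.0.16 (quasi-likelihood, robust, R 4.3.3), 1 mean per group, 6 residual degrees of freedom, Benjamini-Hochberg over all tested genes, called under 0.05. For edgeR's comparisons of groups, the SE is the size of the log2 difference divided by the square root of its F statistic. DESeq2 1.42.0, other scalings, filters and left-out libraries were alternatives. Same-numbered libraries deviated together on 120 kPa (r across genes of 0.426, 0.157 and 0.359) and not on 10 kPa (0.0171). A fit with the number as a block (4 residual degrees of freedom) is therefore given where it changes a call. That block gave each number the same term on both stiffnesses, although the libraries on 10 kPa did not deviate together. Loci are from GENCODE on GRCh38. Only the edgeR fits for siNemp1 on 120 kPa, with and without the block, were tested on simulated data. The simulated replicate differences were smaller than those of most of these genes. The genes and lists were chosen with earlier results of these data known. From each wider list the named genes are up to 4 with the smallest p for siNemp1 on each stiffness, unless said otherwise. The 5 genes nearest in pattern were taken among those with a mean of at least 5 CPM.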

Additional observations from a re-analysis of the deposited data

Results flagged for a closer look

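The siNemp1 effect on ATF4 had opposite signs on the 2 substrates. siNemp1 was below Control in both numbered pairs on 10 kPa and above it in all 3 on 120 kPa. The difference between the effects was 0.37 ± 0.23 (SE) on the log2 scale in edgeR's fit of all libraries, with an unadjusted p of 0.135 and a Benjamini-Hochberg adjusted p of 1.00. With the replicate number as a block it was 0.38 ± 0.14, with an unadjusted p of 0.0187 and an adjusted p of 1.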

How the results depend on the processing

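With the replicate block, 2 of the 10 genes were called for siNemp1 on 120 kPa, beside 1224 of 13990 genes. With the block in the 120 kPa libraries alone 3 were called, beside 1255 of 13362. With the block but without pair 1 it was 5, beside 1552 of 13860. Without a filter on low counts 3 were called for siNemp1 on 120 kPa, beside 643 of 23547 genes, and 1 in the average over stiffnesses, beside 649. In each stiffness comparison 6 were called, beside 159 genes in Control and 529 in siNemp1. That background includes the low-count genes that the filter removes. The cause of the added calls was not tested. For siNemp1 on 10 kPa, 1 gene (ATF4) was called in the 4 libraries alone, with or without the block. Of all 13345 genes, 2232 were called there with the block and 2308 without it. The block changed no other count of the 10 genes. Leaving out single libraries without the block left all 6 planned counts at 0. For siNemp1 on 120 kPa the log2 difference ranged over the left-out libraries from -0.28 to 0.98 for DDIT3, -0.57 to 1.39 for TRIB3, -1.12 to 1.35 for CHAC1 (also -0.19 without Control library 1), -0.19 to 1.38 for ASNS, -0.0945 to 0.46 for PHGDH (also -0.05 without siNemp1 library 3), -0.19 to 1.31 for PSAT1 and -0.0638 to 0.78 for MTHFD2. The lowest was without siNemp1 library 3, except for PHGDH (Control library 1), and the highest without Control library 3. In the block without pair 3 CHAC1 was at -0.0506. On 10 kPa, where no fit called these genes, the range was -0.15 to 0.13 for DDIT3, -0.15 to 0.0677 for TRIB3, -0.18 to 0.0492 for CHAC1 and -0.0203 to 0.16 for PSAT1. DDIT3 there was at 0.0153 with DESeq2 and 0.0138 with its size factors in edgeR. Of the alternatives for single genes 725 kept direction and call, 27 gained a call and 18 changed sign. Without the block, the filtered fit of all libraries called none of the 10 genes in any of the 6 comparisons. Each group had 2 or 3 libraries, and the effect of that number on the calls was not tested.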
